A study of Mus musculus with 6 samples.

Results

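The unfolded protein response and the integrated stress response are described here as 34 genes in cells labelled as primary hepatic stellate cells. The cells came from male wild-type mice and were kept for 24 h with APB-R3, an engineered interleukin-18 binding protein (IL-18BP), or with vehicle. The genes were taken from a list of the pathway and matched by symbol to the deposited counts. All 34 were found among the 40879 gene symbols, and all 34 were among the 12776 genes with enough counts to be tested. They fall into 14 chaperones and folding factors of the endoplasmic reticulum (ER), 4 genes of ER-associated degradation, 5 stress sensors and transcription factors, and 11 genes known as targets of the transcription factor ATF4. The 3 APB-R3 libraries and the 3 vehicle libraries are the only groups of the study. The agent was used at 150 µg/ml according to the series text and at 150 µg/kg in the protocol of the samples, and which unit is right could not be settled. The labels name no strain or age and do not say whether replicates are separate animals or cultures, so a p-value here covers the variation among 6 libraries, part of which may be technical.

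The unfolded protein response matches the folding capacity of the ER to its load. Unfolded protein draws the chaperone BiP away from the sensors IRE1, PERK and ATF6. ATF6 and spliced XBP1 then raise chaperone and degradation genes through ER stress response elements, while PERK phosphorylates the initiation factor eIF2α, which slows translation in general and lets ATF4 be made. Other eIF2α kinases, which sense amino acid shortage, haem shortage or double-stranded RNA, lead to ATF4 as well, and together they are called the integrated stress response. A stellate cell that becomes activated secretes collagen and other matrix proteins, which are folded in the ER.

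Libraries held 8323809 to 10792531 counts in APB-R3 and 10431310 to 10573916 in vehicle. Levels are given as CPM, the counts scaled to the library total. The library kit (QuantSeq) is built to read transcripts close to their 3′ ends, so that CPM does not grow with gene length, and levels of different genes are compared on that scale. The labelled cell type was checked with markers of liver cells. All 12 stellate cell markers had counts in at least 1 library. They summed to 717 to 767 CPM in APB-R3 and 756 to 835 CPM in vehicle. Most of this came from Dcn, Col1a1, Col1a2 and Acta2, at means of 308, 139, 119 and 114 CPM. The others ran from 0.13 CPM (Ngfr) to 46.6 CPM (Hgf), with Lrat at 1.7 CPM. The 9 endothelial markers summed to more, 5278 to 6027 CPM in APB-R3 and 5555 to 6273 CPM in vehicle. The 10 macrophage markers summed to 335 to 499.7 CPM in APB-R3 and 299 to 430.4 CPM in vehicle. All levels are therefore those of mixed cultures, in which fewer cells of a type and less RNA per cell cannot be told apart. How much of a stress gene's level came from stellate cells and how much from endothelial cells is not known. The 5 plasma cell markers, a cell type known for a strong unfolded protein response, summed to at most 8.53 CPM in any library, and Tnfrsf17, one of them, was at 0 in all. The library of APB-R3 replicate 1 stood apart by Il1b, at 36.5 CPM against at most 2.28 CPM in the other 5. The library of vehicle replicate 2 stood apart by hepatocyte markers, which summed to 88.1 CPM there and to at most 14.8 CPM in the other 5.

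None of the 34 genes passed the comparison of APB-R3 with vehicle, made with edgeR's quasi-likelihood test over all genes, and the adjusted p was 0.9998 for each. Of all 12776 genes tested, 0 passed (0%) at an adjusted p under 0.05, also with DESeq2 or limma-voom, and 425 (3.33%) had an unadjusted p under 0.05 with edgeR, 1.75% of genes being higher and 1.57% lower with APB-R3. DESeq2 gave 376 and limma-voom 427 such genes. Among the stress genes 1 had an unadjusted p under 0.05 (2.94%), Shmt2. The 3 APB-R3 libraries all lay above or all below the 3 vehicle libraries in 3 of 34 genes (8.82%), against 8.91% of all genes tested. Both shares were close to the background. The list had 16 genes higher and 18 lower with APB-R3, with a median log2 fold change of −0.0048, against 50.7% higher and a median of 0.0032 over all genes. Summed over the 34 genes, the APB-R3 libraries held 5431, 5430 and 5437 CPM and the vehicle libraries 5444, 5509 and 5418 CPM. The means of this sum differed by −24.3 CPM, less than the vehicle libraries differed from each other but more than the APB-R3 libraries did. ER chaperones made up most of the sum, with a mean of 4069 of 5433 CPM in APB-R3.

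**Figure D1:**
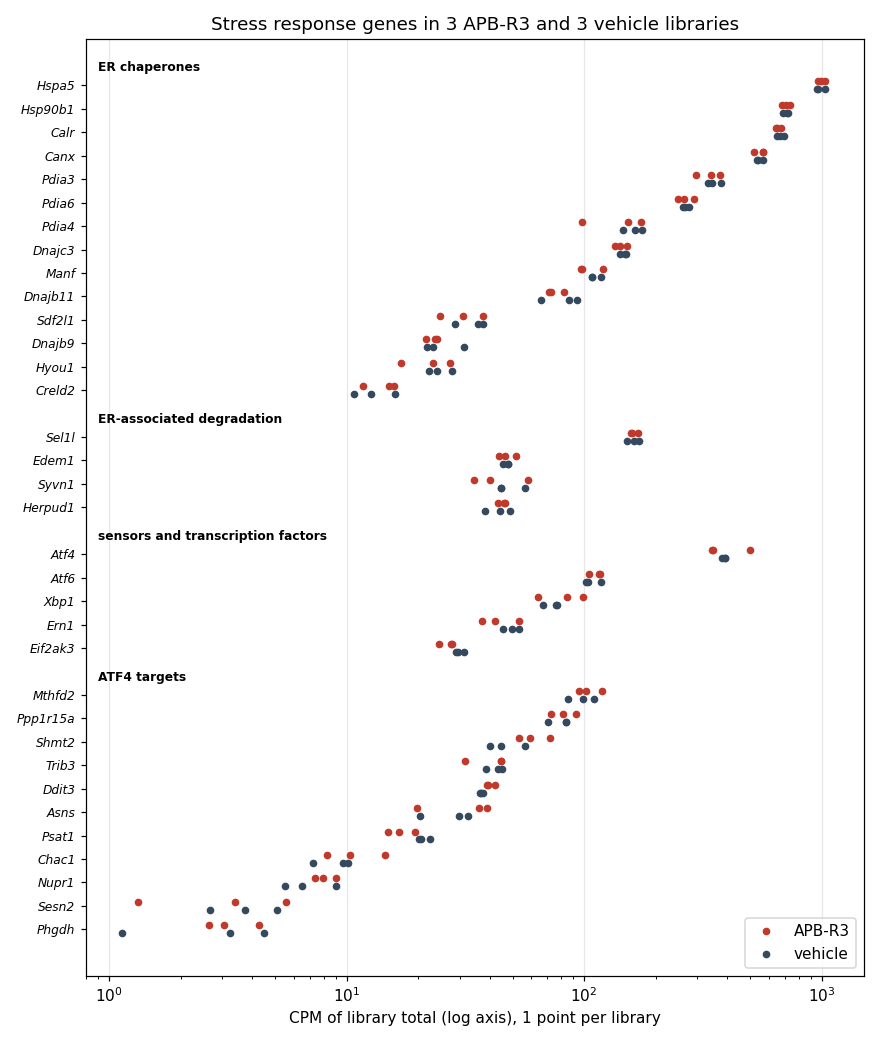
Levels of the 34 genes in CPM of the library total on a log axis, 1 point per library, with APB-R3 in red above vehicle in dark blue, in 4 groups by role. Hspa5 lies highest, near 1000 CPM, Phgdh lowest at 1.13 to 4.51 CPM, and the colours overlap in all genes but Ddit3, Psat1 and Eif2ak3.

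The ER chaperones had the highest median level of the 4 role groups, and the most abundant of them varied little between libraries. Hspa5 encodes BiP, the Hsp70 chaperone of the ER. Hspa5 had 1035, 993 and 961 CPM in APB-R3 libraries and 965, 1035 and 956 CPM in vehicle libraries. It was above 99.2% of all genes tested, its highest library was 1.08 times its lowest, and the log2 fold change was 0.011 (SE 0.083) with a 95% interval from −0.16 to 0.18. As a fold, this interval ran from 0.895 to 1.14, so BiP transcripts lay within a narrow band across both groups. Hsp90b1, the ER member of the Hsp90 family, had 709, 678 and 732 CPM in APB-R3 libraries and 725, 717 and 689.9 CPM in vehicle libraries. The lectin chaperones that hold glycoproteins during folding were as even. Calr, for the soluble calreticulin, had 650.1, 645 and 672 CPM in APB-R3 libraries and 649.5, 696 and 671 CPM in vehicle libraries. Canx, for the membrane-bound calnexin, had 519.6, 568 and 564 CPM in APB-R3 libraries and 538, 534 and 566 CPM in vehicle libraries. Their log2 fold changes were −0.014 (SE 0.081) for Hsp90b1, −0.041 (SE 0.082) for Calr and 0.0075 (SE 0.083) for Canx. Over all 6 libraries, the coefficient of variation of these 4 genes ran from 2.93% to 3.71%, where counting alone gives at most 1.34%. The groups overlapped in each of them.

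The disulfide isomerases, which make and rearrange disulfide bonds, differed more among themselves. Pdia3 had 297, 373 and 342 CPM in APB-R3 libraries and 346, 377 and 334 CPM in vehicle libraries. Pdia6 had 264, 247 and 289 CPM in APB-R3 libraries and 260.1, 266 and 275 CPM in vehicle libraries. Pdia4 had 97.8, 174 and 153 CPM in APB-R3 libraries and 164, 175 and 146 CPM in vehicle libraries. Pdia3 and Pdia6 overlapped between groups, while Pdia4 had 1 low library, APB-R3 replicate 1, below the other 5. Its log2 fold change of −0.20 (SE 0.14) was 0.0013 without that library, and −0.38 with an unadjusted p under 0.05 without APB-R3 replicate 2. Pdia3 was also lowest there, with a log2 fold change of −0.068 (SE 0.096) over all libraries and 0.0075 without that library. The APB-R3 replicate 1 library had the lowest total and the high Il1b level, and the part of either in these values was not tested.

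The co-chaperones that bring clients to BiP or drive its cycle lay lower. Dnajc3, a J-domain protein that also binds unfolded clients, had 136, 142 and 151 CPM in APB-R3 libraries and 142, 149.7 and 149 CPM in vehicle libraries. Dnajb11, another J-domain partner of BiP, had 82.5, 72.4 and 71.4 CPM in APB-R3 libraries and 86.3, 66.1 and 93.7 CPM in vehicle libraries. Dnajb9, a J-domain protein and a sensitive target of XBP1, had 21.5, 23.6 and 24.1 CPM in APB-R3 libraries and 23.1, 21.8 and 31.3 CPM in vehicle libraries. All 3 overlapped between groups, and their log2 fold changes were −0.045 (SE 0.093), −0.13 (SE 0.12) and −0.14 (SE 0.16), in that order. That of Dnajb9 was 0.033 without vehicle replicate 3, its highest library. Hyou1, a nucleotide exchange factor of BiP, had 23.2, 16.96 and 27.2 CPM in APB-R3 libraries and 27.7, 22.2 and 24.0 CPM in vehicle libraries. Sdf2l1, which works in a complex with Dnajb11, had 30.8, 24.7 and 37.6 CPM in APB-R3 libraries and 28.5, 35.6 and 37.6 CPM in vehicle libraries. The lowest library of both was APB-R3 replicate 2, and their log2 fold changes of −0.14 (SE 0.17) and −0.14 (SE 0.16) were 0.023 and 0.0024 without it. Manf, a secreted factor that also binds BiP in the ER, averaged 105 ± 13.6 CPM in APB-R3 and 111 ± 5.92 CPM in vehicle (SD, n = 3 each). Creld2, an ER stress-induced folding factor and the least abundant chaperone here, averaged 14.2 ± 2.25 CPM in APB-R3 and 13.1 ± 2.64 CPM in vehicle (SD, n = 3 each). Neither differed beyond its spread, with log2 fold changes of −0.092 (SE 0.10) for Manf and 0.11 (SE 0.21) for Creld2, the value of Creld2 being −0.0070 without vehicle replicate 2.

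Of the 14 chaperones 3 were higher and 11 lower with APB-R3, with a median log2 fold change of −0.057, and none had an unadjusted edgeR p under 0.05. The median was −0.024 without APB-R3 replicate 1 and −0.014 without vehicle replicate 2. With both left out, Dnajb11 had an unadjusted p under 0.05 at a log2 fold change of −0.33. The 95% interval lay within a 1.5-fold change in either direction in all 14. Over all genes tested, 58.4% had an interval within 1.5-fold. Among the 10743 genes tested within the members' range of levels, 7365 had such an interval. Median levels were 148 CPM for the chaperones and 21.4 CPM for all genes tested, and the part of level in this was not tested. The summed level of the chaperones was 3978, 4067 and 4161 CPM in APB-R3 libraries and 4075, 4215 and 4106 CPM in vehicle libraries. These sums overlapped. The difference of their means was below the SD of either group, which was 91.5 CPM in APB-R3 and 73.5 CPM in vehicle. As a mean over log2 CPM, in which each chaperone counts alike, the groups also overlapped, at 7.09 in APB-R3 and 7.16 in vehicle. On this measure the difference of −0.066 was above the vehicle SD of 0.045 and just below the APB-R3 SD of 0.068.

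Sequences upstream of these genes were read for response elements. The rule for choosing the genes did not use sequence, but it listed genes known to respond through these elements. Shares above those of all windows are therefore no independent support, here or for the ATF4 targets below. The promoter windows came from RefSeq (build GRCm38.p6) and span 250 bases before to 50 after a gene's start; 31 of the 34 genes matched, all but Atf6, Hyou1 and Manf. The ER stress response element (ERSE) was searched on both strands as CCAAT and CCACG with any 9 bases between them. It was present in 7 of 12 chaperone genes, and in 39 of all 32851 windows (0.119%). Of all 31 matched genes of the pathway 8 held it, the one that is no chaperone being the degradation gene Syvn1. The 250 bases before the start of Hspa5 are shown because this promoter is the textbook case of the element, with both parts of the element in capitals (chr2:34771840-34772089, plus strand, 5′ to 3′).
Hspa5: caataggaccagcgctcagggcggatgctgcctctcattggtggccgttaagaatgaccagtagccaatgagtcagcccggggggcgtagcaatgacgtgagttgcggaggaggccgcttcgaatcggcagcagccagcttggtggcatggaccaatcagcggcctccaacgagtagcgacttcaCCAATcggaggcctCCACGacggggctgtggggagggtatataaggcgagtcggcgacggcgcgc
The elements of the other genes that hold it are shown with 12 bases on each side so that the fixed parts, in capitals, can be compared. Each is written 5′ to 3′ on the strand that reads CCAAT first, which for Hsp90b1 (first element), Calr and Creld2 is opposite to the gene.
Hsp90b1 (chr10:86705521-86705563, plus strand): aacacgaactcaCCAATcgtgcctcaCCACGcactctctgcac
Hsp90b1 (chr10:86705626-86705668, minus strand): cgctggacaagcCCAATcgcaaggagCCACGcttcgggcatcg
Calr (chr8:84847063-84847105, plus strand): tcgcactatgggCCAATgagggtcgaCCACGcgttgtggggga
Canx (chr11:50325788-50325830, minus strand): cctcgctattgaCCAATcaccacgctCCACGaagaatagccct
Pdia6 (chr12:17266479-17266521, plus strand): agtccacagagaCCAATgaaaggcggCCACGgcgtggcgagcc
Dnajc3 (chr14:118937815-118937857, plus strand): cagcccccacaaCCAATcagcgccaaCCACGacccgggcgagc
Creld2 (chr15:88819508-88819550, minus strand): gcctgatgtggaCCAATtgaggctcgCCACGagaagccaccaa
Syvn1 (chr19:6046520-6046562, plus strand): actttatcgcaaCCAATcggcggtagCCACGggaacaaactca
Hsp90b1 held 2 elements in opposite directions. A shorter relative, ERSE-II, searched as ATTGG and CCACG with 1 base between, was found in 12 of all windows (0.0365%), among them those of Dnajb11 and Herpud1, shown with 9 bases on each side.
Dnajb11 (chr16:22857843-22857871, plus strand): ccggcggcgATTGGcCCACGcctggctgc
Herpud1 (chr8:94386368-94386396, plus strand): cgggcgctgATTGGgCCACGttggacact
The 7 chaperone genes with an ERSE had log2 fold changes from −0.045 to 0.11 and the 5 matched ones without it from −0.197 to −0.068. Median levels were 548 CPM with an ERSE and 78.7 CPM without, and Dnajb11, counted as without, holds an ERSE-II. Without APB-R3 replicate 1, Pdia3 was at 0.0075 and Pdia4 at 0.0013, and without APB-R3 replicate 2 Sdf2l1 was at 0.0024. Dnajb11 and Dnajb9 remained lower with APB-R3 in both fits, but Dnajb9 was at 0.033 without vehicle replicate 3. A match to these letters is a description of the sequence and not of factor binding. The split by ERSE was made with the fold changes known, so it was not tested.

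The genes of ER-associated degradation, which returns misfolded proteins to the cytosol for destruction, had 2 members higher and 2 lower. Sel1l, the adaptor that recruits clients, had 159, 157 and 168 CPM in APB-R3 libraries and 151, 170.3 and 162 CPM in vehicle libraries. Syvn1, the ubiquitin ligase of the same membrane complex, had 34.2, 57.9 and 40.2 CPM in APB-R3 libraries and 44.8, 56.3 and 44.7 CPM in vehicle libraries. Sel1l was even across both groups, and its log2 fold change was −0.0011 (SE 0.093). Syvn1 spread over both groups, with its lowest value again in APB-R3 replicate 1, and its log2 fold change of −0.14 (SE 0.16) was 0.0037 without that library. Without APB-R3 replicate 2 it was −0.40, with an unadjusted p under 0.05. Edem1, a mannosidase-like factor that marks glycoproteins for degradation, was at 47.3 ± 3.97 CPM in APB-R3 and 47.0 ± 1.23 CPM in vehicle (SD, n = 3 each). Herpud1, a scaffold of the complex, was at 45.2 ± 1.74 CPM in APB-R3 and 43.8 ± 5.27 CPM in vehicle (SD, n = 3 each). Their log2 fold changes were 0.0023 (SE 0.12) and 0.042 (SE 0.12), and that of Herpud1 was −0.035 without vehicle replicate 2.

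Among the sensors and their transcription factors no gene had an unadjusted p under 0.05, and the median log2 fold change was 0.021. Leaving out APB-R3 replicate 1 gave a median of −0.15, and leaving out APB-R3 replicate 3 gave 0.11. An unadjusted p under 0.05 appeared for Atf4 and Xbp1 without APB-R3 replicate 1 and for Ern1 without APB-R3 replicate 3, and none of these passed after adjustment. Eif2ak3, which encodes PERK, had 27.8, 24.5 and 27.4 CPM in APB-R3 libraries and 31.4, 29.5 and 28.9 CPM in vehicle libraries. Eif2ak3 was lower in each APB-R3 library than in any vehicle library, by a log2 fold change of −0.18 (SE 0.14) at an unadjusted edgeR p of 0.208, and 4.16% of all genes tested were separated in this direction. Ern1, which encodes the sensor IRE1α, had 42.3, 37.1 and 53.0 CPM in APB-R3 libraries and 53.0, 45.7 and 49.6 CPM in vehicle libraries. It was lower in 2 of 3 APB-R3 libraries than in any vehicle library, with a log2 fold change of −0.17 (SE 0.13). Atf6, the membrane-bound factor that is cut free in the Golgi, had 116, 116 and 105 CPM in APB-R3 libraries and 117, 102 and 104 CPM in vehicle libraries. The groups overlapped, at a log2 fold change of 0.056 (SE 0.10).

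Xbp1 and Atf4 each rested on single libraries. Xbp1, whose messenger RNA is spliced by IRE1α, had 64.0, 99.1 and 85.1 CPM in APB-R3 libraries and 77.2, 75.9 and 67.0 CPM in vehicle libraries. APB-R3 replicates 2 and 3 lay above every vehicle library and APB-R3 replicate 1 below every one, and the log2 fold change was 0.17 (SE 0.13) over all libraries. It was 0.32 when APB-R3 replicate 1 was left out and 0.013 when APB-R3 replicate 2 was. Counts at the 3′ end do not separate the spliced form from the unspliced one. Atf4 had 498, 344 and 348 CPM in APB-R3 libraries and 393, 382 and 393 CPM in vehicle libraries. APB-R3 replicate 1 was the highest library, the other 2 APB-R3 libraries were below every vehicle library, and the vehicle libraries were close to each other, at 389 ± 6.46 CPM (SD, n = 3). The log2 fold change of Atf4 was 0.021 (SE 0.11) over all libraries and −0.18 without APB-R3 replicate 1. ATF4 protein is controlled mostly at translation, which these counts do not show.

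**Figure D2:**
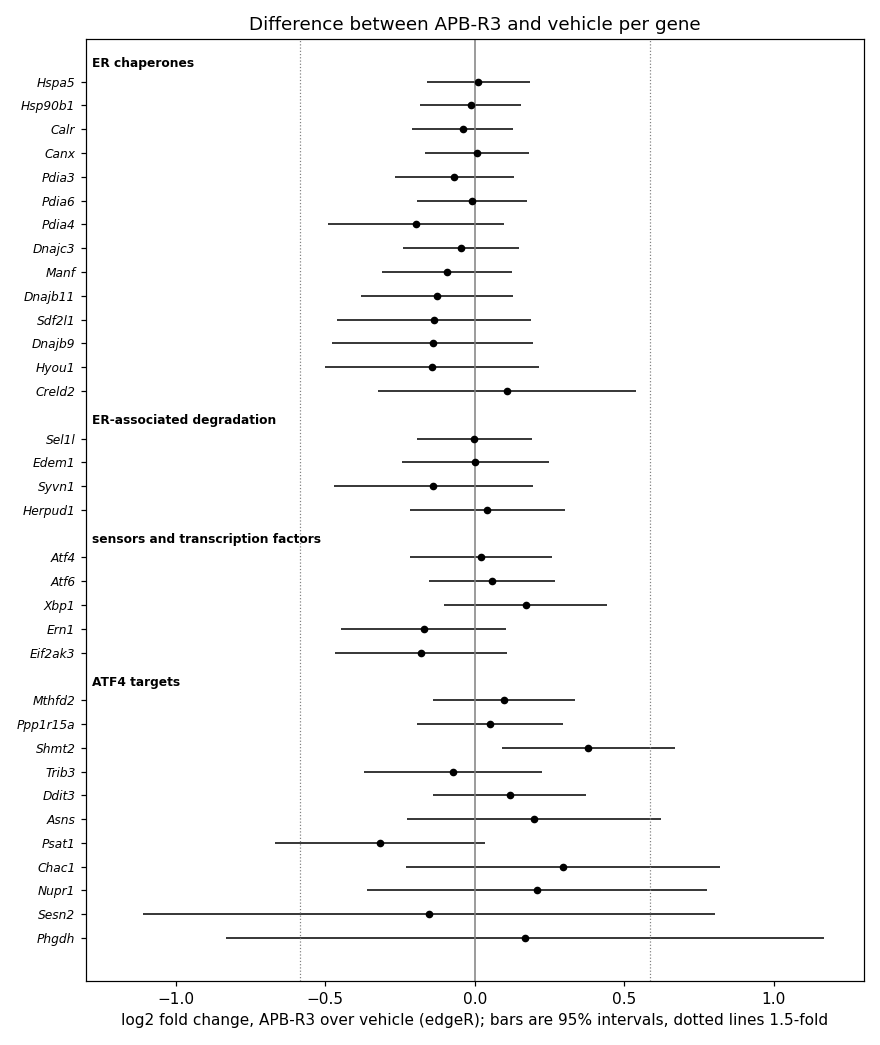
Log2 fold change of each gene, APB-R3 over vehicle, from edgeR with its 95% interval as a bar, in the same 4 groups, with dotted lines at a 1.5-fold change. The interval of Shmt2 alone excludes 0, and 7 genes, all ATF4 targets, have intervals that reach beyond a 1.5-fold change.

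The ATF4 targets were lower and more variable than the chaperones, at a median of 29.6 CPM against 148 CPM. Shmt2, which makes one-carbon units from serine in mitochondria, had the smallest p of all 34 genes. Shmt2 had 71.6, 59.4 and 53.2 CPM in APB-R3 libraries and 56.4, 40 and 44.6 CPM in vehicle libraries. The highest library was APB-R3 replicate 1 and the lowest was vehicle replicate 2, and the groups overlapped, since vehicle replicate 1 lay above APB-R3 replicate 3. The log2 fold change was 0.38 (SE 0.14), with a 95% interval from 0.091 to 0.67, an unadjusted edgeR p of 0.0124 and an adjusted p of 0.9998. Leaving out APB-R3 replicate 1 gave 0.25, leaving out vehicle replicate 2 gave 0.29, leaving out vehicle replicate 3 gave 0.34, and the unadjusted p was above 0.05 in each of these fits. With APB-R3 replicate 1 and vehicle replicate 2 both left out it was 0.16. Mthfd2, the next enzyme of the mitochondrial folate pathway, had 102, 119 and 95.2 CPM in APB-R3 libraries and 110.1, 85.8 and 99.0 CPM in vehicle libraries. The log2 fold change of Mthfd2 was 0.098 (SE 0.11), or 0.019 without vehicle replicate 2, and its groups overlapped.

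The genes of serine synthesis, which feeds this pathway, gave other values than Shmt2. Psat1, the aminotransferase of serine synthesis, had 19.3, 15.0 and 16.7 CPM in APB-R3 libraries and 20.2, 20.6 and 22.4 CPM in vehicle libraries. Every APB-R3 value of Psat1 was under every vehicle value, with −0.32 (SE 0.17) as the log2 fold change and an unadjusted edgeR p of 0.0742. Without APB-R3 replicate 1 it was −0.42, with an unadjusted p under 0.05. Phgdh, the first enzyme of that route, was the least abundant member, at 3.32 ± 0.844 CPM in APB-R3 and 2.96 ± 1.70 CPM in vehicle (SD, n = 3 each). Its counts per library ran from 12 to 47. Its log2 fold change of 0.17 (SE 0.48) had a 95% interval from −0.83 to 1.17, which does not exclude a 1.5-fold change in either direction. Without vehicle replicate 2 the log2 fold change was −0.21.

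Genes of amino acid shortage and of the later, proapoptotic stage followed. Asns, the asparagine synthetase, had 38.9, 36.1 and 19.9 CPM in APB-R3 libraries and 29.7, 20.4 and 32.5 CPM in vehicle libraries. The libraries of both groups were interleaved, and the log2 fold change of 0.20 (SE 0.20) was 0.019 without APB-R3 replicate 1 and 0.031 without vehicle replicate 2. Without APB-R3 replicate 3 it was 0.45, with an unadjusted p under 0.05. Chac1, an enzyme that breaks down glutathione, had 10.3, 14.4 and 8.24 CPM in APB-R3 libraries and 10.2, 7.19 and 9.61 CPM in vehicle libraries. Its log2 fold change of 0.29 (SE 0.25) was 0.035 without APB-R3 replicate 2 and 0.17 without vehicle replicate 2. Ddit3, the proapoptotic factor CHOP, had 39.0, 42.1 and 39.2 CPM in APB-R3 libraries and 36.8, 36.4 and 37.4 CPM in vehicle libraries. Every APB-R3 library of Ddit3 was above every vehicle library, by a small log2 fold change of 0.12 (SE 0.12) at an unadjusted edgeR p of 0.353, and 4.75% of all genes tested were separated in this direction. Trib3, a pseudokinase that CHOP and ATF4 raise, had 44.7, 44.8 and 31.7 CPM in APB-R3 libraries and 45.0, 43.5 and 38.5 CPM in vehicle libraries. Ppp1r15a, the phosphatase subunit that reverses eIF2α phosphorylation, had 81.3, 92.6 and 72.8 CPM in APB-R3 libraries and 83.7, 83.6 and 70.3 CPM in vehicle libraries. Neither differed beyond its spread, with log2 fold changes of −0.073 (SE 0.14) and 0.050 (SE 0.12). Nupr1, a stress-induced chromatin protein, was at 8.11 ± 0.841 CPM in APB-R3 and 6.99 ± 1.82 CPM in vehicle (SD, n = 3 each). Sesn2, a leucine sensor upstream of mTORC1, was at 3.42 ± 2.12 CPM in APB-R3 and 3.84 ± 1.22 CPM in vehicle (SD, n = 3 each). Their log2 fold changes were 0.21 (SE 0.27) and −0.15 (SE 0.46), and that of Sesn2 turned to 0.21 without APB-R3 replicate 1, where it had 11 counts. Without vehicle replicate 2 the values were 0.071 for Nupr1 and 0.12 for Sesn2.

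The element by which ATF4 acts with C/EBP partners (CARE) was searched in the same windows as TTNCATCA on both strands, where N is any base. It was present in 4 of the 11 ATF4 targets (36.4%) and in 3.97% of all windows. Of all 31 matched genes 5 held it, the one that is no ATF4 target being Herpud1. No ATF4 target held an ERSE, and no chaperone held a CARE. The 250 bases before the start of Chac1 are shown with the fixed bases of the element in capitals, as the ATF4 counterpart of the Hspa5 promoter (chr2:119350992-119351241, plus strand, 5′ to 3′, GRCm38.p6).
Chac1: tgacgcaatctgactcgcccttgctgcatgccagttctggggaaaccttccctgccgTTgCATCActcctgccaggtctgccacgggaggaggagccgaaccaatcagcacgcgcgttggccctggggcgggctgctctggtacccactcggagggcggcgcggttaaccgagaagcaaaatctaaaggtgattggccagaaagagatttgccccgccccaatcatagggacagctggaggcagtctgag
The 30 bases around each of the other matches are shown for comparison, on the strand that reads the search letters, which for Asns is opposite to the gene.
Herpud1 (chr8:94386306-94386335, plus strand): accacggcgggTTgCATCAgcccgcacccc
Trib3 (chr2:152344028-152344057, minus strand): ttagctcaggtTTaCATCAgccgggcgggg
Asns (chr6:7693214-7693243, plus strand): cgtgcgggaagTTtCATCAtgtggctggga
Nupr1 (chr7:126625562-126625591, minus strand): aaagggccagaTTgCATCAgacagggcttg
The 4 ATF4 targets with the element had a median log2 fold change of 0.20 and the 7 without it 0.098, with ranges that overlapped, from −0.073 to 0.29 and from −0.32 to 0.38. Herpud1 was the member with both an ERSE-II and a CARE, and the windows printed for them do not overlap.

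Chaperones and ATF4 targets were then set against each other. Of the 11 ATF4 targets 8 were higher and 3 lower with APB-R3, at a median log2 fold change of 0.12, while the chaperones had 3 higher and 11 lower at −0.057. The median of the ATF4 targets was 0.071 without vehicle replicate 2 and 0.035 without APB-R3 replicate 2. Without APB-R3 replicate 2, and likewise without both APB-R3 replicate 1 and vehicle replicate 2, the ATF4 targets had 6 higher and 5 lower and the chaperones 6 higher and 8 lower. As a mean over log2 CPM, the chaperones exceeded the ATF4 targets by 2.66, 2.46 and 2.91 in APB-R3 libraries and by 2.61, 2.96 and 2.89 in vehicle libraries. The groups overlapped, and the difference between their means, −0.15 on the log2 scale, was smaller than the SD of 0.23 among APB-R3 libraries and of 0.18 among vehicle libraries. Leaving out APB-R3 replicate 2 gave −0.037, leaving out vehicle replicate 2 gave −0.075 and leaving out APB-R3 replicate 3 gave −0.26. A filter of at least 5 CPM in 3 libraries, which removed the low-count genes Sesn2 and Phgdh, gave −0.16. The opposite signs of the medians therefore came with a contrast that lay within the spread between libraries.

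**Figure D3:**
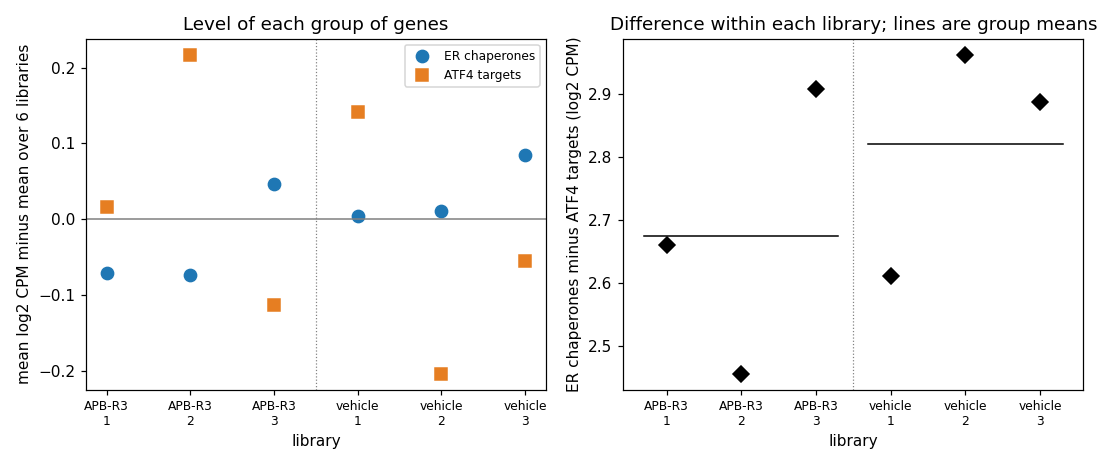
Left, mean log2 CPM of the 14 ER chaperones (circles) and the 11 ATF4 targets (squares) in each library, minus the mean over 6 libraries; right, the chaperones minus the ATF4 targets within each library, with group means as lines. The ATF4 targets span −0.20 to 0.22 and the chaperones −0.073 to 0.084, and the APB-R3 and vehicle libraries overlap in both panels.

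The libraries of each group differed among themselves in the ATF4 targets. Their mean log2 CPM was 0.22 above the mean over 6 libraries in APB-R3 replicate 2 and 0.11 below it in APB-R3 replicate 3. In vehicle it was 0.14 above it in replicate 1 and 0.20 below it in replicate 2. This mean gives the same weight to Sesn2 and Phgdh, the least abundant members. Phgdh deviated from its own mean by −1.20 in vehicle replicate 2, at 12 counts, and Sesn2 by −1.20 in APB-R3 replicate 1, at 11 counts. Vehicle replicate 2 was the lowest of the 6 libraries in 6 of 11 ATF4 targets, where it was the lowest in 20.4% of all genes tested, and APB-R3 replicate 2 was the highest in 5 of 11, where it was the highest in 18.1%. Vehicle replicate 2 also had the high level of hepatocyte markers, whose part in this was not tested. The median coefficient of variation over the 6 libraries was 18.7% for ATF4 targets, 8.83% for chaperones and 14.4% for all genes tested. Median levels were 29.6, 148 and 21.4 CPM in the same order, and the part of level in this variation was not tested.

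**Figure D4:**
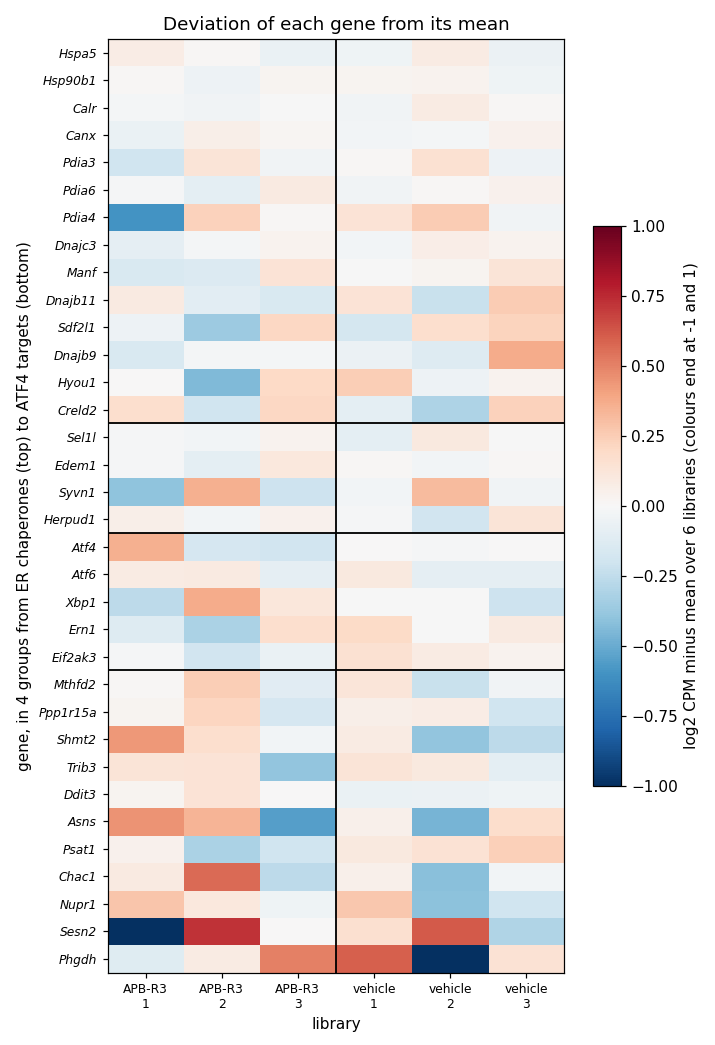
Deviation of each gene from its own mean over the 6 libraries in log2 CPM, with APB-R3 libraries left and vehicle libraries right of the black line and the 4 role groups from ER chaperones (top) to ATF4 targets (bottom). The upper chaperone rows are nearly blank, Pdia4 and Sesn2 are lowest in APB-R3 replicate 1, and several ATF4 targets are low in vehicle replicate 2.

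Another 75 genes of the same pathways, listed from general knowledge but with earlier results of these data known, were read from the same fit. Of these 72 were tested, 0 passed, and 42 were higher and 30 lower with APB-R3, at a median log2 fold change of 0.024. Fgf21, Fkbp2 and Derl3 had too few counts. The other ER folding genes had 7 higher and 12 lower at a median of −0.0096, and those with the smallest p were Erp44 at −0.17 (SE 0.12), Ero1b at −0.58 (SE 0.41) and Dnajc10 at −0.11 (SE 0.096). The other degradation genes had 6 higher and 5 lower at 0.0073, with Derl2 at 0.18 (SE 0.14) and Edem3 at −0.14 (SE 0.12). The other ATF4 targets had 16 higher and 8 lower at a median of 0.070, with the transfer RNA synthetase gene Aars at 0.15 (SE 0.11) and the amino acid transporter genes Slc38a2 at −0.14 (SE 0.11) and Slc3a2 at 0.12 (SE 0.094). Both sets of ATF4 targets had medians above 0 and both sets of folding genes medians below 0, and no gene of these lists passed the test. The second sets come from the same 6 libraries, so a shared sign is no independent support. The median of the other folding genes, −0.0096, was near the 0.0032 of all genes tested.

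The other regulators had 13 higher and 5 lower at a median of 0.044, and 1 of the 18 had an unadjusted p under 0.05 (5.56%, against 3.33% of all genes tested), Casp12. Casp12, a caspase of the ER membrane, had 13.0, 10.4 and 13.7 CPM in APB-R3 libraries and 23.8, 18.2 and 19.9 CPM in vehicle libraries. The groups did not overlap, the log2 fold change was −0.75 (SE 0.19) at an unadjusted edgeR p of 0.000615, and the adjusted p was 0.9998. This gene was on the list with its earlier result in these data known. Ppp1r15b, the constitutive partner of Ppp1r15a, had 86.6, 80.6 and 86.8 CPM in APB-R3 libraries and 93.7, 104 and 89.6 CPM in vehicle libraries. Ppp1r15b was separated in the same direction at −0.18 (SE 0.10), while Atf5, an ATF4-like factor, was at 0.17 (SE 0.13) with groups that overlapped. In all, the groups did not overlap in 3 of the 18 (16.7%), against 8.91% of all genes tested. Casp12 is 1 of these 3 and was listed with its result known, so this share is no support. Over the 72 tested genes of the 4 further lists the share was 9.72%.

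**Figure D5:**
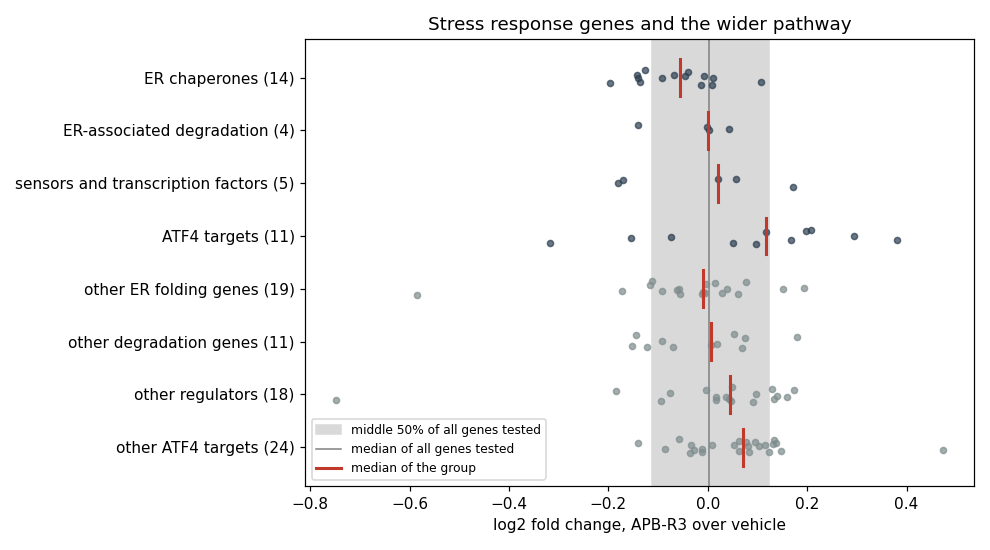
Log2 fold change, APB-R3 over vehicle, of each tested gene in the 4 role groups (dark points) and in 4 further lists of the same pathways (grey points), with the number tested in parentheses, red bars for medians, a grey line for the median of all genes tested and a grey band for their middle 50% (−0.11 to 0.12). The band describes single genes and not medians of lists, and Casp12 is the lowest point at −0.75.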

How the data were processed

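Counts per gene of 6 libraries were used as deposited, 1 column of whole-number counts for each library, and their normalization was none. Per the submitters' processing notes, the tools were bcl2fastq 2.20.0.422, fastp, STAR and HTSeq with build GRCm39, and per the labels' protocols the libraries were made from total RNA with a QuantSeq kit. Group and replicate came from the sample labels. The numbers in the column headers differ from those in the titles and were not used.

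Genes were filtered with filterByExpr (minimum count 10, minimum total 15), scaled by TMM and tested with edgeR 4.0.16 (R 4.3.3) by the quasi-likelihood test with Benjamini-Hochberg adjustment over all 12776 genes. CPM used the library total, and mean log2 CPM a prior count of 2. The members and lists were chosen with earlier results of these data known. The further pathway genes named are the 3 with the smallest p in each list, of which 1 is not reported here. Alternatives were DESeq2 1.42.0, limma 3.58.1 with voom, other scalings and filters, a replicate block and the leaving out of libraries. The edgeR step was checked on simulated counts. Intervals are 95%. Pairs of libraries, within and between groups, differed by 5.75 to 14.5 times the counting noise (chi-square per degree of freedom), so none was counted as a duplicate. Deviations of same-numbered libraries of the groups correlated at 0.0225, 0.027 and 0.048, and those of differently numbered ones at −0.0265 to −0.00315. The labels do not say what a number pairs, so the main fit was unpaired and the replicate block was kept as an alternative. Promoter sequences are from RefSeq (GRCm38.p6), a build other than that of the counts.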

Additional observations from a re-analysis of the deposited data

How the results depend on the processing

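In 15 alternatives, no gene of the pathway passed at an adjusted p under 0.05. Of the 34 genes 24 turned direction in at least 1 alternative, and 10 (Calr, Manf, Dnajb11, Xbp1, Ern1, Eif2ak3, Shmt2, Ddit3, Psat1 and Chac1) in none. The cause was not tested. Without the low-count filter 20 genes passed an adjusted p under 0.05, none of them in the pathway, and 695 had an unadjusted p under 0.05. With libraries left out these counts were 0 to 1 (1 without vehicle replicate 3) and 368 to 674 (674 without APB-R3 replicate 3), and 0 to 4 genes of the pathway had an unadjusted p under 0.05. The median log2 fold change of sensors and transcription factors was then −0.186 to 0.114. The fit with a replicate block gave 539 genes with an unadjusted p under 0.05, 0 with an adjusted p under 0.05, and 2 pathway genes with an unadjusted p under 0.05 (Pdia4 and Shmt2), while every library correlated best with its own number, a hint from the data and not the design. Sel1l turned to 0.000536 with DESeq2 size factors, 0.0048 with library size only, 0.000542 with DESeq2, 0.000843 with limma-voom and 0.000235 with the replicate block. Edem1 turned to −0.000137 with limma-voom, and Atf4 to −0.00667 with limma-voom and −0.000869 with the replicate block. With libraries left out, log2 fold changes ran as follows for the genes that turned: Hspa5 −0.0249 to 0.0592, Hsp90b1 −0.0386 to 0.0102, Canx −0.0211 to 0.0402, Pdia3 −0.153 to 0.0705, Pdia6 −0.0587 to 0.0381, Pdia4 −0.381 to 0.0748, Dnajc3 −0.0751 to 0.00888, Sdf2l1 −0.288 to 0.00237, Dnajb9 −0.23 to 0.0334, Hyou1 −0.295 to 0.0234, Creld2 −0.0606 to 0.268, Sel1l −0.0486 to 0.0546, Edem1 −0.0542 to 0.05, Syvn1 −0.395 to 0.135, Herpud1 −0.0525 to 0.124, Atf4 −0.186 to 0.117, Atf6 −0.000846 to 0.12, Mthfd2 −0.00753 to 0.183, Ppp1r15a −0.051 to 0.142, Trib3 −0.162 to 0.0851, Asns −0.146 to 0.453, Nupr1 −0.0162 to 0.429, Sesn2 −0.704 to 0.483, Phgdh −0.212 to 0.598. Leaving out APB-R3 replicate 1 and vehicle replicate 2 together was chosen after seeing the data. At a minimum of 5 CPM in 3 libraries, Sesn2 and Phgdh were not tested.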
